A study of Drosophila melanogaster with 9 samples.

Results

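The 10 genes described here encode the matrix proteins of the Drosophila basement membrane: the collagen IV chains Col4a1 and vkg, the laminin chains LanA, LanB1 and LanB2, the perlecan trol, the nidogen Ndg, and SPARC, Ppn and Glt. They were taken by gene symbol from a table of 14168 entries, of which 13963 carry a FlyBase identifier. Each symbol matched 1 entry. All 10 passed the filter on low counts and were among the 8487 genes tested, and 9 had a count in every library. The exception was Ndg, which passed the filter only through the NAT10 knockdown, where it was high. The gene annotation deposited with the table places 8 of them in the basement membrane, all but LanA and SPARC.

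Messenger RNA was sequenced from whole wing imaginal discs of third-instar larvae, in 3 genotypes with 3 libraries each. Controls carried only the driver (en-GAL4>+) and no RNAi transgene, and their data columns name the strain w1118. The NAT10 knockdown added UAS-NAT10-RNAi to the same driver, and the double knockdown carried UAS-NAT10-RNAi together with Xrp1-RNAi. NAT10, the fly gene l(1)G0020, encodes an RNA acetyltransferase of the nucleolus, and Xrp1 encodes a stress transcription factor of ribosomally impaired cells; the design asks how much of the response to NAT10 loss depends on Xrp1. All 3 genotypes share the driver, whose expression is posterior, and each library of whole discs mixes targeted posterior cells with untargeted anterior ones. Each RNA came from 100 pooled discs of larvae kept on food at 25 °C. Larval ages in hours are not given in the labels. A difference in developmental stage between the genotypes therefore cannot be told apart from an effect of the knockdowns.

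A basement membrane is the sheet of matrix that coats the basal face of an epithelium. Laminin trimers, built of an alpha, a beta and a gamma chain, polymerise at the cell surface, collagen IV trimers form a covalent network over them, and nidogen and the proteoglycan perlecan bridge the networks. In the larval wing disc collagen IV sets tissue shape and tension, and much of the protein on the disc is known to be made by the fat body and carried in the hemolymph. The transcript levels below are therefore those of the dissected disc with any cells attached to it. They are not the amount of protein on the disc.

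Estimated counts per library totalled 14183856 to 19949448, and the libraries of a genotype correlated at 0.997 to 0.998. The libraries were checked against their labels. l(1)G0020 was lower than in control by 0.70 ± 0.042 log2 under NAT10 knockdown and by 0.44 ± 0.041 in the double knockdown, and the double knockdown was 0.26 ± 0.042 log2 above the NAT10 knockdown (adjusted p = 7.11e-06). The driver's own gene en stood at 101 ± 2.59, 61.7 ± 0.705 and 71.8 ± 1.14 CPM (estimated counts scaled to library depth) in control, NAT10 knockdown and double knockdown. A weaker NAT10 knockdown and the loss of Xrp1 therefore cannot be told apart where the knockdowns differ. Xrp1 stood at 521 ± 8.80 CPM in control, 941 ± 15.0 under NAT10 knockdown and 409 ± 14.4 in the double knockdown (SD, n = 3). In bulk RNA, fewer cells of a type and less RNA per cell cannot be told apart.

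Fold changes are log2 with standard errors from edgeR's quasi-likelihood test, and a gene was called at a Benjamini-Hochberg adjusted p under 0.05 over all genes tested. In the NAT10 knockdown against control 9 of the 10 genes were called, 5 higher and 4 lower, where 62.1% of all tested genes were called, 32.5% higher and 29.6% lower. Collagen IV, SPARC, LanA and Ndg rose, while Ppn, Glt, LanB2 and trol fell. Ndg had to differ once it had passed the filter, and of the other 9 genes 8 were called, 4 in each direction. The median over the 10 genes was 0.11 log2 beside 0.03 over all genes, 0.07 without replicate 1 of the NAT10 knockdown and 0.0558 without Ndg. In the double knockdown against control 6 were called, 5 higher and 1 lower, beside 31.3% of all genes, 15.7% higher and 15.5% lower. Without the library scaling, on total counts, the split over all genes in that comparison changed from 1335 higher and 1318 lower to 1613 higher and 1044 lower. The median of the 10 genes was 0.11 log2, beside 0.00083 over all genes, and became 0.162 without Ndg, 0.18 without control replicate 2 and 0.19 without replicate 3 of the double knockdown. Between the knockdowns 8 were called, 4 higher and 4 lower in the double knockdown, beside 56.7% of all genes, 28.4% higher and 28.3% lower; without Ndg 7 of 9 were called, 4 higher and 3 lower. The median was 0.00214 log2 with Ndg and 0.0063 without it, against -0.011 over all genes. Leaving out replicate 1 of the NAT10 knockdown gave 0.0426 for the median of the 10, replicate 3 of the double knockdown 0.0316 and replicate 2 of the double knockdown -0.00843. With so many genes called, the number of calls among the 10 does not set them apart, and the results below are the size and direction of each gene's change.

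**Figure D1:**
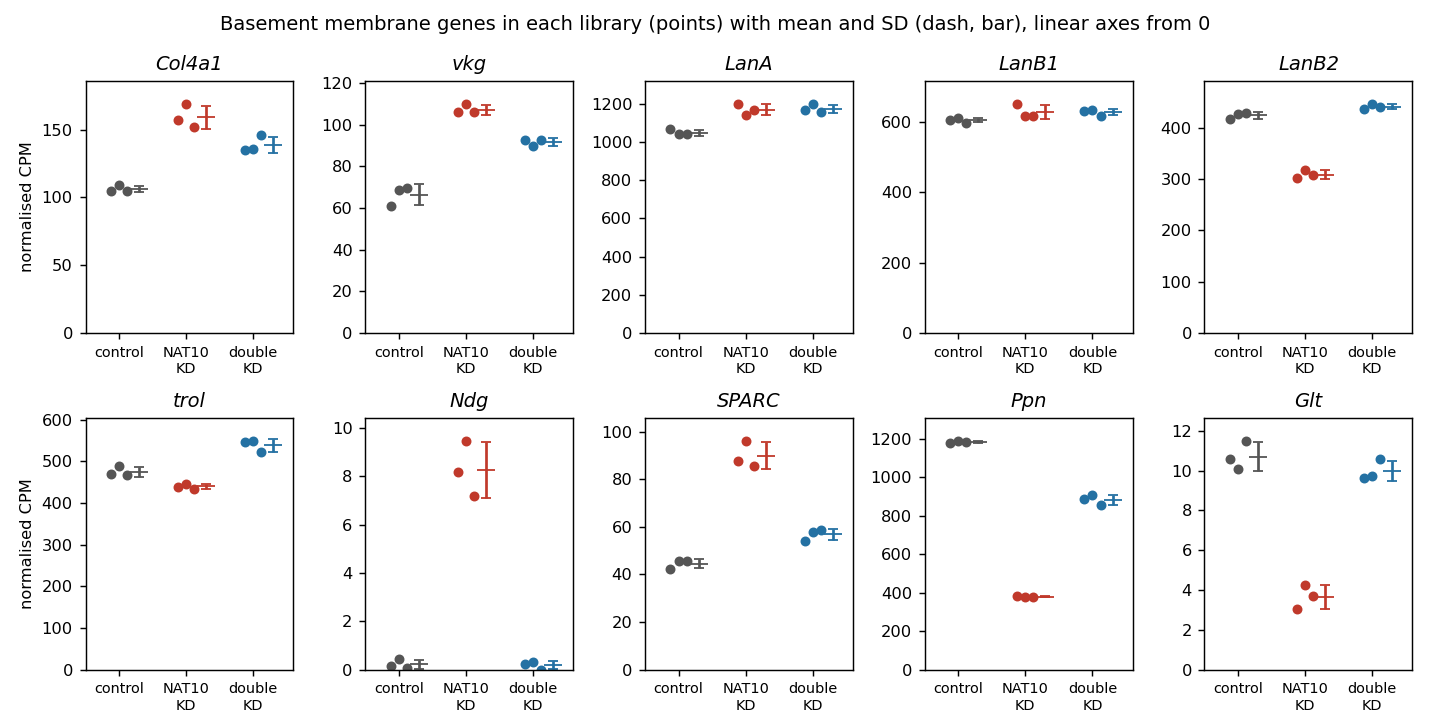
Normalised CPM (vertical axes, linear from 0) of the 10 basement membrane genes in each of the 3 libraries of control (grey), NAT10 knockdown (red) and double knockdown (blue); points are libraries, and the dash and bar beside them are the mean and SD. Ndg is near 0 in control and the double knockdown and between 7.17 and 9.48 in the NAT10 knockdown, while Ppn falls from about 1184 to 379 in the NAT10 knockdown and stands at 883 in the double knockdown.

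Both collagen IV chains rose under NAT10 knockdown and stood between control and NAT10 knockdown in the double knockdown. Col4a1 (FBgn0000299) encodes the alpha1 chain and vkg (viking, FBgn0016075) the alpha2 chain. On the BDGP6.54 annotation Col4a1 lies on the plus strand of chromosome arm 2L at 5029609 to 5037279 and vkg on the minus strand at 5012144 to 5028191, so the genes are transcribed away from each other from starts 1417 bases apart, with 0 annotated genes between. Col4a1 measured 105, 109 and 105 CPM in the control libraries, 157, 169 and 152 under NAT10 knockdown and 135, 136 and 146 under double knockdown. The 3 genotypes did not overlap. The increase over control was 0.59 ± 0.041 log2 under NAT10 knockdown (adjusted p = 2.08e-12). The double knockdown exceeded control by 0.39 ± 0.041 (adjusted p = 2.97e-08) and was lower than the NAT10 knockdown by 0.20 ± 0.040 (adjusted p = 0.000138).

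The alpha2 chain moved alongside. Levels of vkg were 60.8, 68.8 and 69.8 CPM in control, 106, 110 and 106 under NAT10 knockdown and 92.7, 89.7 and 92.8 under double knockdown. Again no library of one genotype reached the range of another. The changes were 0.69 ± 0.046 log2 for the NAT10 knockdown against control (adjusted p = 7.57e-13), 0.47 ± 0.047 for the double knockdown against control (adjusted p = 1.05e-08) and -0.23 ± 0.044 between the knockdowns (adjusted p = 8.75e-05).

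Collagen IV trimers hold a fixed proportion of the chains, and the ratio of their transcripts within a library does not depend on the library scaling. The count ratio of Col4a1 to vkg was 1.72, 1.58 and 1.5 in control, 1.48, 1.53 and 1.43 under NAT10 knockdown and 1.46, 1.52 and 1.57 under double knockdown. The control libraries overlapped those of both knockdowns. The log2 ratio differed from control by -0.11 ± 0.063 in the NAT10 knockdown (exact permutation test, two-sided, p = 0.2) and by -0.08 ± 0.065 in the double knockdown (exact p = 0.4); 3 libraries against 3 can give no p below 0.1. A design of this size cannot decide at the 0.05 level whether the ratio changed.

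Of the genes with a mean of at least 10 CPM, 6519 in number, the 6 whose centred log2 profile over the 9 libraries lay closest to the mean of the collagen pair were CG12081, CG9932, CG31142, pwn, GlyP and CG5189. Their root mean square distances to that mean were 0.0323 to 0.0747 log2. Col4a1 and vkg lay 0.0953 from each other. Because the reference is their own mean, each lay equally far from it by construction, at 0.0477. CG12081 alone was closer to that mean than this. GlyP, which encodes glycogen phosphorylase, stood at 225 ± 2.05, 366 ± 11.1 and 284 ± 2.08 CPM in control, NAT10 knockdown and double knockdown. SPARC ranked 352 by the same distance.

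**Figure D2:**
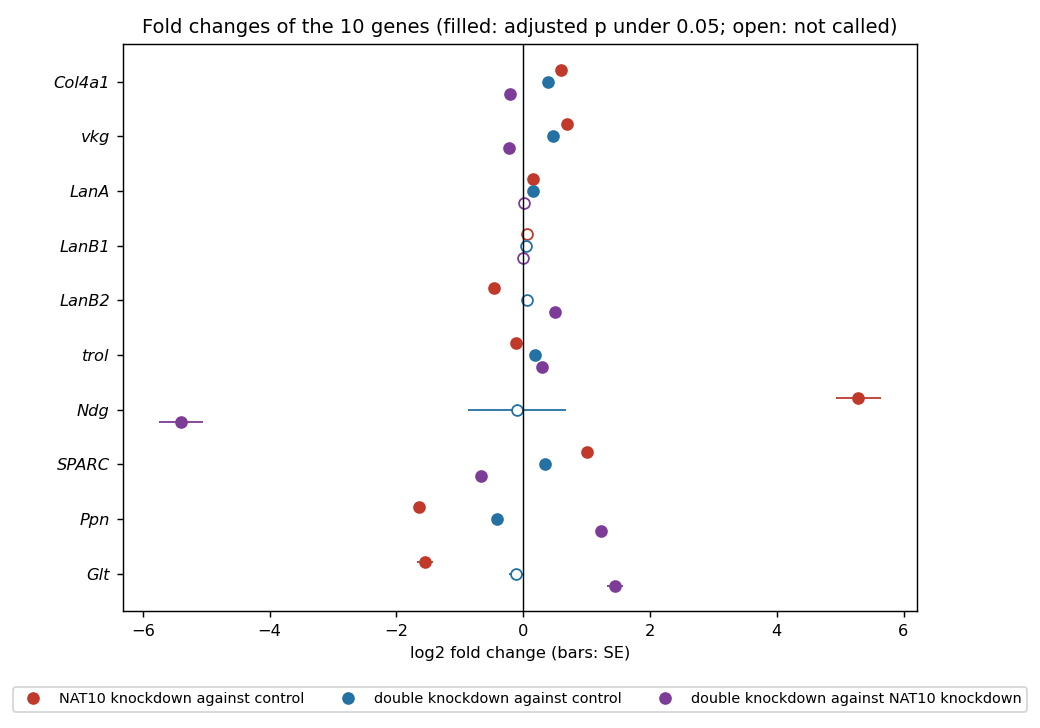
Log2 fold change (horizontal axis, bars are standard errors) of each of the 10 genes in the NAT10 knockdown against control (red), the double knockdown against control (blue) and the double against the NAT10 knockdown (purple); filled symbols passed an adjusted p of 0.05 and open ones did not. For collagen IV, SPARC, LanB2, Ndg, Ppn and Glt the blue symbol lies nearer to 0 than the red one, whereas LanA has the same position for both. The blue symbol of trol lies on the other side of 0 from the red one. So do those of LanB2 and Ndg, which are open. The filled symbols of Ndg are a description, because it passed the filter only through the NAT10 knockdown.

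The laminin chains did not move together. LanA (FBgn0002526, arm 3L, 6203831 to 6218022, minus strand) encodes an alpha chain, LanB1 (FBgn0261800, arm 2L, 7811438 to 7820771, plus strand) the single beta chain and LanB2 (FBgn0267348, arm 3L, 9614914 to 9623980, plus strand) the single gamma chain. LanA measured 1068, 1040 and 1041 CPM in control, 1200, 1143 and 1166 under NAT10 knockdown and 1166, 1198 and 1160 under double knockdown. Both knockdowns lay above every control library and overlapped each other. The increase was 0.16 ± 0.026 log2 in each (adjusted p = 9.24e-06 and 1.79e-05), and the knockdowns differed by 0.01 ± 0.026 (adjusted p = 0.857). In the authors' deposited table the LanA change in the NAT10 knockdown had an FDR of 0.072 and that in the double knockdown 0.00453.

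LanB1 had the smallest fitted difference from control of the 10 in both knockdowns. It measured 606, 612 and 599 CPM in control, 652, 618 and 619 under NAT10 knockdown and 631, 636 and 619 under double knockdown. The knockdown libraries lay just above the controls, without overlap, yet neither difference was called: 0.06 ± 0.027 log2 (adjusted p = 0.0709) and 0.05 ± 0.027 (adjusted p = 0.13). On total counts without scaling both passed (adjusted p = 0.0386 and 0.0307), so its call against control rests on the scaling; in the authors' deposited table its FDR was 0.325 for the NAT10 knockdown and 0.0401 for the double knockdown. The knockdowns overlapped, with a difference of 0.0 ± 0.026 log2 between them (adjusted p = 0.958).

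LanB2 alone of the 3 chains fell in the NAT10 knockdown. Its levels were 416, 427 and 429 CPM in control, 301, 318 and 307 under NAT10 knockdown and 436, 446 and 440 under double knockdown. The NAT10 knockdown lay below all other libraries, and the double knockdown was slightly above control. The decrease was 0.46 ± 0.027 log2 (-0.46, adjusted p = 5.5e-14), and the double knockdown exceeded the NAT10 knockdown by 0.51 ± 0.027 (adjusted p = 5.38e-15). Against control the double knockdown differed by 0.06 ± 0.027 log2, which did not pass (adjusted p = 0.119) but did so on total counts (adjusted p = 0.0274) and in the authors' deposited table (FDR 0.0393).

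The beta and gamma chains enter a trimer one to one in the textbook account, and the ratio of their transcripts was higher in every NAT10 knockdown library than in any other. The count ratio of LanB1 to LanB2 was 1.46, 1.43 and 1.40 in control, 2.17, 1.94 and 2.02 under NAT10 knockdown and 1.45, 1.42 and 1.41 under double knockdown. The NAT10 knockdown stood apart from both other genotypes, which overlapped. The log2 ratio was higher than control by 0.51 ± 0.049 under NAT10 knockdown and lower in the double than in the NAT10 knockdown by 0.52 ± 0.048, each with an exact permutation p of 0.1, the smallest this design allows, so neither could pass (0.3 after Benjamini-Hochberg adjustment over the 6 ratio comparisons made). Between the double knockdown and control the difference was 0.0 ± 0.021 log2 (exact p = 1.0).

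**Figure D3:**
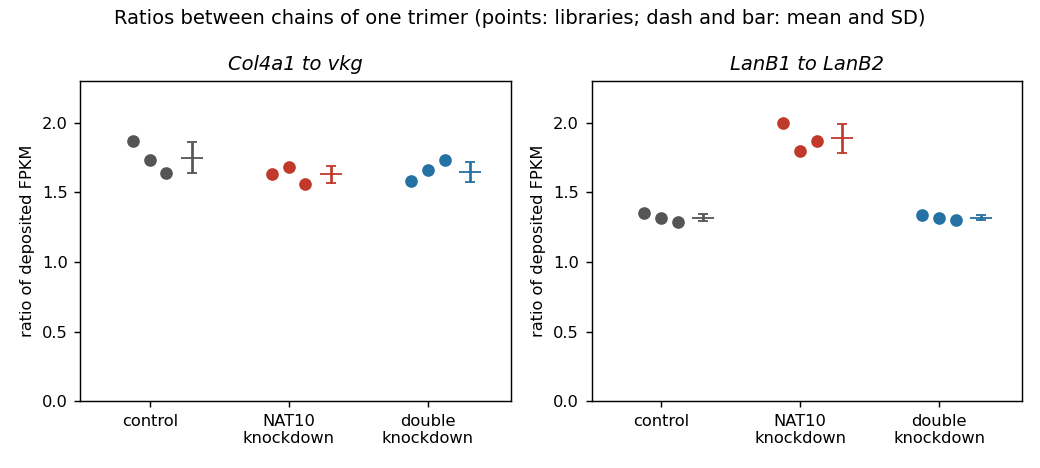
Ratio of deposited FPKM (vertical axes, linear from 0) of Col4a1 to vkg on the left and of LanB1 to LanB2 on the right, with libraries as points and the mean and SD as dash and bar, by genotype. The LanB1 to LanB2 ratio is 1.32 on average in control and the double knockdown and 1.89 in the NAT10 knockdown, whereas the Col4a1 to vkg ratio lies between 1.56 and 1.87 in every library.

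The bridging proteins gave the widest contrast, one abundant and one close to absent. Perlecan, encoded by trol (FBgn0284408, chromosome X, 2470460 to 2545427, minus strand), measured 469, 490 and 468 CPM in control, 439, 447 and 435 under NAT10 knockdown and 546, 550 and 522 under double knockdown. The 3 genotypes did not overlap and were ordered differently from collagen IV, with control in the middle. trol fell by 0.11 ± 0.028 log2 in the NAT10 knockdown (-0.11, adjusted p = 0.0013), rose by 0.18 ± 0.028 in the double knockdown (adjusted p = 8.97e-06) and was 0.29 ± 0.028 higher in the double than under NAT10 knockdown (adjusted p = 9.37e-10). In the authors' deposited table the decrease of trol had an FDR of 0.949 and its increase an FDR of 0.000868.

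Nidogen had the largest fitted fold change of the 10, on few counts. Ndg (FBgn0026403, arm 2R, 10313891 to 10322104, plus strand) had 3, 6 and 1 estimated counts in the control libraries, 143, 161 and 129 under NAT10 knockdown and 5, 6 and 0 under double knockdown. The NAT10 knockdown libraries lay far above the rest, which overlapped each other. Summed over the genotype these are 10, 433 and 11 counts, with 95% exact Poisson intervals of 4.8 to 18.4, 393 to 476 and 5.49 to 19.7 that cover counting error only; the library at 0 allows up to 3 counts.

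In CPM, Ndg went from 0.217 ± 0.189 in control to 8.28 ± 1.16 under NAT10 knockdown and 0.194 ± 0.172 in the double knockdown (SD, n = 3). Since Ndg passed the filter through the NAT10 knockdown alone, its comparisons with that genotype are given as a description. The fitted difference from control was 5.29 ± 0.36 log2, and it was 6.09 without control replicate 2 and 4.84 without control replicate 3. The double knockdown lay below the NAT10 knockdown by 5.4 ± 0.35 log2 (-5.4), with -5.96 when its replicate 2 and -4.79 when its replicate 3 was left out. Between the double knockdown and control the estimate was -0.10 ± 0.77 (adjusted p = 0.939), and it became 0.70 without control replicate 2 and 0.49 without replicate 3 of the double knockdown, so no direction can be read from it. Even in the NAT10 knockdown Ndg stayed a minor transcript. Exons of CG34222 overlap 3.28% of its exon bases, and CG34222 had 1 count in 1 NAT10 knockdown library and 0 in the other 8.

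SPARC, a collagen-binding glycoprotein that collagen IV needs for its normal deposition in flies, changed in the same direction as the collagen chains in each comparison. SPARC (FBgn0026562, arm 3R, 26869238 to 26871995, minus strand) measured 42.3, 45.8 and 45.7 CPM in control, 87.8, 96.2 and 85.4 under NAT10 knockdown and 54.2, 57.9 and 58.5 under double knockdown. The genotypes did not overlap, with the double knockdown nearer to control. The NAT10 knockdown exceeded control by 1.01 ± 0.053 log2 (adjusted p = 3.64e-15) and the double knockdown by 0.35 ± 0.054 (adjusted p = 1.19e-05), with -0.66 ± 0.050 between them (adjusted p = 1.26e-11).

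Papilin, a large proteoglycan-like glycoprotein related to the ADAMTS proteases without being one, had, with Glt, the largest decrease of the 10 in the NAT10 knockdown. Ppn (FBgn0003137, arm 3R, 28520665 to 28540324, minus strand) measured 1179, 1191 and 1183 CPM in control, 381, 378 and 377 under NAT10 knockdown and 888, 907 and 854 under double knockdown. No genotype overlapped another. Ppn fell by 1.64 ± 0.027 log2 (-1.64, adjusted p = 1.97e-26), rank 186 by fold among the 2511 genes called lower. In the double knockdown it stayed lower than control, by 0.42 ± 0.026 (-0.42, adjusted p = 6.07e-13), and stood above the NAT10 knockdown by 1.22 ± 0.026 (adjusted p = 2.01e-23). In the authors' deposited table the double knockdown's decrease of Ppn was -0.40 log2 with an FDR of 0.224.

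Glutactin is a sulfated glycoprotein of embryonic basement membranes with a cholinesterase-like domain. Glt (FBgn0001114, arm 2L, 8672698 to 8676804, plus strand) measured 10.6, 10.1 and 11.5 CPM in control, 3.03, 4.24 and 3.72 under NAT10 knockdown and 9.64, 9.72 and 10.6 under double knockdown. The NAT10 knockdown lay below all other libraries, and the other genotypes overlapped. Glt fell by 1.55 ± 0.13 log2 (-1.55, adjusted p = 9.62e-11), and the double knockdown was 1.45 ± 0.13 above the NAT10 knockdown (adjusted p = 4.09e-10). The double knockdown and control differed by -0.11 ± 0.11 (adjusted p = 0.498). Exons of CG9287 overlap 0.83% of those of Glt.

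When the test asked for a change of more than 1.5-fold (edgeR's glmTreat), vkg, SPARC, Ndg, Ppn and Glt passed in the NAT10 knockdown, 5 of the 10. Ndg, Ppn and Glt passed between the knockdowns. Since Ndg passed the filter only through the NAT10 knockdown, its passes are a description. Of all 8487 genes tested, 1091 and 964 passed in these comparisons. In the double knockdown against control 0 of the 10 passed, beside 335 of all genes, and 0 did at an unadjusted p under 0.05. In the authors' deposited comparisons, 7 of the 10 had an FDR under 0.05 in each knockdown against control, Ndg among them in the NAT10 knockdown. The share of all genes under that FDR was not computed, so this count does not set the 10 apart. LanA, LanB1 and trol did not reach that FDR in the NAT10 knockdown, and Ndg, Ppn and Glt did not in the double knockdown.

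Levels can be compared between genes only per transcript length, for which the deposited FPKM (fragments per kilobase of transcript, scaled to library depth) were used. In control Ppn was highest at 158 ± 1.22 FPKM, followed by LanB1 (96.3 ± 1.05), LanA (89.0 ± 1.08) and LanB2 (73.0 ± 1.40). SPARC (38.7 ± 1.89) and trol (37.6 ± 0.994) came next and overlapped over libraries, followed by Col4a1 (18.0 ± 0.519), vkg (10.3 ± 0.801), Glt (3.27 ± 0.228) and Ndg (0.047 ± 0.0406; SD, n = 3 throughout). Each other neighbouring pair in that order did not overlap. Collagen IV transcripts were thus well below those of laminin in these discs.

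In the NAT10 knockdown Ppn dropped from the top to rank 5, at 50.9 ± 0.232 FPKM, below LanB1 (101 ± 3.02), LanA (99.9 ± 2.50), SPARC (78.5 ± 4.76) and LanB2 (53.5 ± 1.45). LanB1 and LanA overlapped there. Ndg, at 1.76 ± 0.204 FPKM, passed Glt, at 1.12 ± 0.178. In the double knockdown the order of the means was the same as in control, with Ppn at 120 ± 4.47 FPKM first, and LanB1 and LanA overlapped (102 ± 2.12 and 101 ± 2.28).

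The summed FPKM of the 10 genes was 524.6 ± 5.85 in control, 466.0 ± 6.32 under NAT10 knockdown and 535.2 ± 10.3 in the double knockdown. Ppn made up 30.2% ± 0.104 of that sum in control, 10.9% ± 0.133 under NAT10 knockdown and 22.4% ± 0.446 in the double knockdown. SPARC took the opposite course, with 7.37% ± 0.286, 16.8% ± 0.844 and 9.38% ± 0.382. The collagen chains together moved less, with Col4a1 at 3.44%, 5.87% and 4.49% and vkg at 1.97%, 3.61% and 2.71%.

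**Figure D4:**
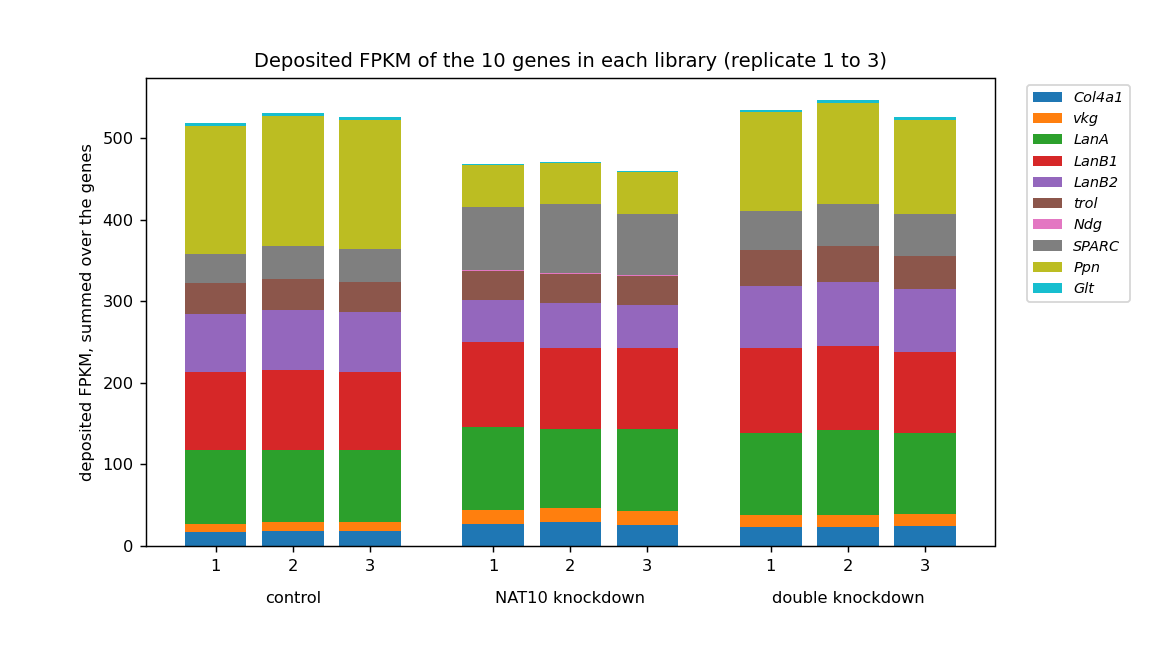
Deposited FPKM of the 10 genes stacked for each library (vertical axis, linear from 0), 3 libraries for each genotype. The summed height is lowest in the NAT10 knockdown (466.0 on average, against 524.6 in control and 535.2 in the double knockdown), the Ppn segment is smaller there and the SPARC segment larger.

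Genes that act with these matrix proteins were counted by list. Of 16 tested matrix receptors and their intracellular linkers, 7 were higher and 7 lower in the NAT10 knockdown, 2 and 3 under double knockdown, and 7 and 4 in the double against the NAT10 knockdown. Of all tested genes 62.1%, 31.3% and 56.7% were called in these comparisons, and the share of receptors and linkers called in the double knockdown was near that background. The medians of the list were -0.0259, 0.0207 and 0.0205 log2, next to 0.03, 0.00083 and -0.011 over all genes. Of the integrin alpha genes, 3 fell in the NAT10 knockdown, with scb from 95.4 ± 3.89 to 53.8 ± 3.71 CPM, if from 134 ± 2.73 to 96.2 ± 4.56 and mew, whose product binds laminin, from 262 ± 1.70 to 226 ± 5.46. The integrin beta gene mys, named here outside the rule for naming, rose by 0.08 ± 0.029 log2 (adjusted p = 0.0192). pigs, which encodes a cytoskeletal linker of the Gas2 family, rose most, from 46.6 ± 1.35 to 153 ± 0.986 CPM, and stood at 66.5 ± 2.07 in the double knockdown.

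Of 13 tested collagen synthesis and secretion genes, 1 was higher and 8 lower in the NAT10 knockdown (median -0.325 log2), 2 and 6 in the double knockdown (median -0.112), and 8 and 1 in the double against the NAT10 knockdown (median 0.138). Over all genes 32.5% were higher and 29.6% lower under NAT10 knockdown, 15.7% and 15.5% under double knockdown, and 28.4% and 28.3% between the knockdowns, with medians of 0.03, 0.00083 and -0.011 log2. Fkbp14, an endoplasmic reticulum prolyl isomerase, fell by 2.82 ± 0.040 log2 (-2.82, adjusted p = 1.06e-27), from 274 ± 8.31 to 38.8 ± 2.00 CPM, and was at 178 ± 2.38 in the double knockdown. Protein disulfide isomerase Pdi went from 1776 ± 23.0 to 858 ± 10.6 CPM, the chaperone Hsc70-3 (BiP) from 1321 ± 8.87 to 648 ± 8.40, and the COPII coat gene Sec23 from 297 ± 1.55 to 199 ± 4.30. These genes serve secreted proteins at large and not collagen alone.

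Closer to collagen itself, and named here outside the rule, Tango1, which helps to load bulky cargo such as collagen at exit sites, stood at 178 ± 5.90, 129 ± 2.69 and 135 ± 4.46 CPM, and both decreases passed (-0.47 and -0.40 log2, adjusted p = 1.28e-11 and 1.2e-09). The prolyl 4-hydroxylase gene PH4alphaEFB was at 46.5 ± 4.22, 42.4 ± 1.06 and 44.6 ± 1.46 CPM with overlapping libraries (-0.13 ± 0.059 log2 in the NAT10 knockdown, adjusted p = 0.0602). Plod of the same list, also named outside the rule, stood at 99.7 ± 1.67, 84.5 ± 2.37 and 101 ± 2.55 CPM. Its decrease in the NAT10 knockdown passed (-0.24 ± 0.039 log2, adjusted p = 8.74e-06), and the double knockdown did not differ from control (adjusted p = 0.756).

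Of 9 tested remodelling genes 5 were higher and 2 lower in the NAT10 knockdown, 2 and 4 under double knockdown, and 3 and 3 between the knockdowns (medians 0.105, -0.0804 and 0.0588 log2). Of all genes 62.1%, 31.3% and 56.7% were called in these comparisons, with medians of 0.03, 0.00083 and -0.011 log2. By direction 32.5% were higher and 29.6% lower in the NAT10 knockdown, 15.7% and 15.5% under double knockdown, and 28.4% and 28.3% between the knockdowns. With 9 genes tested, the counts do not set this list apart. The matrix metalloproteases separated: Mmp2 fell from 86.5 ± 1.98 to 30.4 ± 0.29 CPM and was at 68.3 ± 2.65 in the double knockdown, whereas Mmp1 measured 157 ± 2.95, 174 ± 8.27 and 129 ± 3.90. The secreted proteases AdamTS-A and AdamTS-B also parted, with AdamTS-A at 137 ± 2.64, 42.1 ± 1.56 and 95 ± 2.18 CPM and AdamTS-B at 57.2 ± 2.00, 143 ± 7.66 and 80.5 ± 7.21. All these differences between NAT10 knockdown and control passed.

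Of 12 tested genes for other extracellular matrix proteins and proteoglycans, 2 were higher and 9 lower in the NAT10 knockdown (median -0.471 log2), 3 and 4 in the double knockdown (median -0.0675), and 9 and 3 in the double against the NAT10 knockdown (median 0.442). The shares over all genes were 32.5% higher and 29.6% lower, 15.7% and 15.5%, and 28.4% and 28.3%, and the medians 0.03, 0.00083 and -0.011 log2. The secreted guidance cue NetA fell from 27.1 ± 1.15 to 6.25 ± 0.171 CPM and was at 24.6 ± 0.703 in the double knockdown. tnc, an integrin ligand, fell from 482 ± 2.93 to 163 ± 4.68 CPM, and the apical matrix gene pio from 630 ± 16.5 to 299 ± 4.79. The apical matrix gene dpy went up instead, from 632 ± 5.28 to 1133 ± 21.2 CPM, with 873 ± 8.46 in the double knockdown. The alternative laminin alpha chain wb, named outside the rule, fell by 0.25 ± 0.042 log2 (-0.25, adjusted p = 1.43e-05), the opposite direction to LanA. Of 8 other tested genes that the deposited annotation places in the basement membrane, some of them also in this list, 1 was higher and 5 lower in the NAT10 knockdown, 1 was called in the double knockdown, higher, and 6 were higher and 1 lower between the knockdowns.

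**Figure D5:**
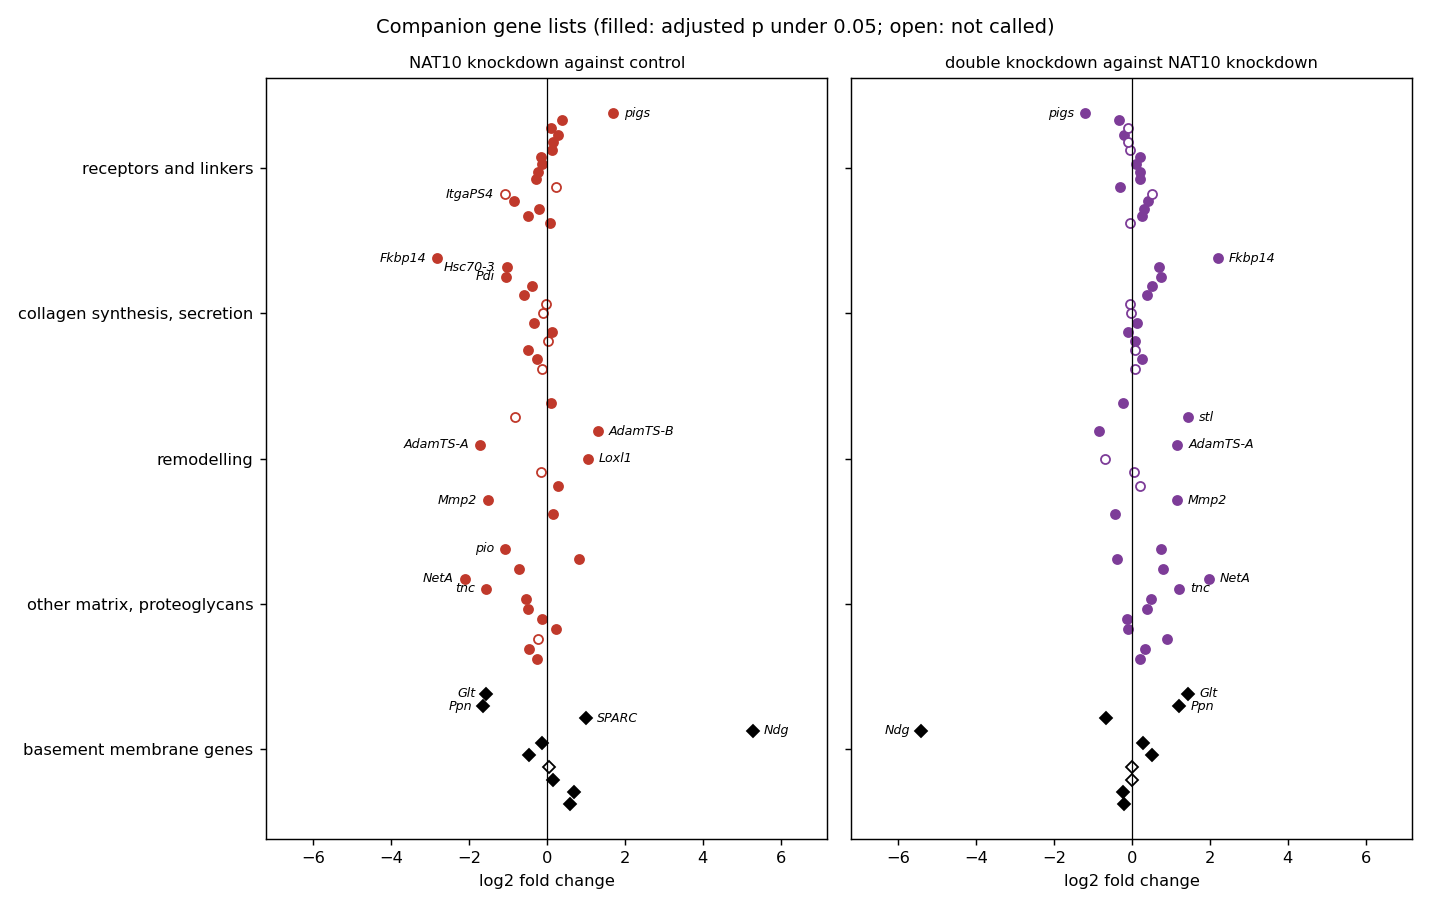
Log2 fold change (horizontal axes) of each tested gene of 4 companion lists (circles) and of the 10 basement membrane genes (black diamonds), for the NAT10 knockdown against control on the left and the double against the NAT10 knockdown on the right; filled symbols passed an adjusted p of 0.05, and genes beyond 1 log2 are named. Ndg stands farthest from 0 on both sides, at 5.29 and -5.4, and Fkbp14 is next on the left at -2.82. Because Ndg passed the filter only through the NAT10 knockdown, its filled symbols are a description.

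Other cell types attach to a dissected disc, and some make basement membrane, so their markers are given beside these results. The labels give the cells as epithelial. Over all tested genes 32.5% were called higher and 29.6% lower in the NAT10 knockdown, beside which the counts of markers stand. The wing epithelium genes nub, vg and ap were present in every library at 146 CPM or more, as the labelled tissue requires, and the 8 epithelial markers summed to 3818 to 3987 CPM in control, 3026 to 3058 under NAT10 knockdown and 3744 to 3796 in the double knockdown, with 7 lower and 1 higher in the NAT10 knockdown. The 10 markers of adult muscle precursors, the cells below the notum epithelium, all fell in the NAT10 knockdown, from a sum of 855 to 862 CPM to 564 to 577, and the sum was 798 to 820 in the double knockdown. Of their defining markers twi went from 27.2 ± 0.784 to 19.8 ± 1.83 CPM, zfh1 from 43.1 ± 2.59 to 18.6 ± 0.373 and Him from 7.87 ± 0.998 to 5.35 ± 0.527. The part of these cells in the changes of LanB2, Ppn, Glt and trol was not tested.

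Hemocytes, the blood cells of the larva, secrete several of the 10 proteins. Their 13 markers summed to 155 to 160 CPM in control, 126 to 131 under NAT10 knockdown and 145 to 152 in the double knockdown. In the NAT10 knockdown 6 of 12 tested were lower and 0 higher, beside 29.6% and 32.5% of all genes. The plasmatocyte gene Hml did not pass there, at 4.42 ± 0.268 CPM in control and 5.55 ± 0.844 CPM under NAT10 knockdown. The defining marker NimC1 went the other way, from 1.35 ± 0.365 to 0.707 ± 0.297 CPM (adjusted p = 0.032). So did eater, from 1.57 ± 0.281 to 0.935 ± 0.0589 CPM, which did not pass (adjusted p = 0.0533). PPO2 of crystal cells was at 6.55 ± 0.941 and 1.32 ± 0.453. Most of the sum came from ush (87.7, 74.5 and 95.6 CPM in control, NAT10 knockdown and double knockdown) and crq (41.8, 37.5 and 36.6), while Hml, at 3.77 ± 0.616 in the double knockdown, had its highest mean in the NAT10 knockdown.

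The fat body, a main source of collagen IV, gave the largest shift of any marker list. Its 9 markers summed to 15.6 to 18.0 CPM in control, 65.5 to 73.7 under NAT10 knockdown and 1332 to 1379 in the double knockdown. Of 8 tested, 6 were higher and 1 lower under NAT10 knockdown, beside 32.5% and 29.6% of all genes. In the double knockdown 8 of 8 were higher, beside 15.7% of all genes. The storage protein gene Lsp2 stood at 2.78 ± 0.378, 14.2 ± 1.72 and 260 ± 4.86 CPM. Like that sum, Col4a1, vkg, SPARC and LanA were above control in both knockdowns. Between the knockdowns Col4a1, vkg, SPARC and Ndg were lower in the double knockdown, where the sum was higher, and LanB2, trol, Ppn and Glt were higher there.

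The 6 tracheal markers summed to 1298 to 1366 CPM over all libraries, most of it from vvl, obst-A and Cht2, and 2 were higher and 3 lower in the NAT10 knockdown. Both defining tracheal markers fell there, btl from 10.9 ± 0.775 to 7.66 ± 1.02 CPM and trh from 84.2 ± 6.99 to 57.8 ± 2.99. The 8 muscle markers summed to 133 to 145, 215 to 218 and 156 to 170 CPM in control, NAT10 knockdown and double knockdown. Of these markers 6 were lower and 2 higher in the NAT10 knockdown, beside 29.6% and 32.5% of all genes. In the double knockdown 7 were lower and 1 higher, beside 15.5% and 15.7% of all genes. Most of the muscle sum came from sls (99.7, 182 and 143 CPM), and the defining marker Mhc fell from 7.10 ± 0.883 to 2.51 ± 0.283 and 2.06 ± 0.30. The part of any of these cell types in the levels of the 10 genes was not tested. No defining marker of any list was at 0 in all libraries of a genotype.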

How the data were processed

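The deposited table holds estimated counts per gene, which per the submitters' processing notes came from reads handled with RSEM, StringTie 1.3.1, HISAT2 2.1.0 and fastp 0.18.0; the build and annotation behind them are not given in the sources used here. Beside the counts, the deposited FPKM values per library were also made by the authors. The authors deposited log2 fold changes with p-values and FDR for each knockdown against control, and these are quoted by name only.

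Estimated counts (8.19% to 9.11% of the values per library were not whole) were rounded and fitted with edgeR 4.0.16 in R 4.3.3: TMM scaling, filterByExpr, a robust quasi-likelihood fit of all 9 libraries with genotype as the only term, and Benjamini-Hochberg adjustment over 8487 genes. The common biological coefficient of variation was 3.61%. CPM were computed from TMM-scaled totals. The series' design states that libraries are biological replicates. Ratios were tested by exact permutation over libraries. DESeq2 1.42.0 served as an alternative. Positions and exon overlaps came from the Ensembl release 115 annotation of BDGP6.54, which may differ from the authors' build.

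The 10 genes, the companion and marker lists and the tests were chosen with earlier results of these data known. Named besides the 10 were up to 4 called genes with the smallest adjusted p from each companion list, the 6 genes closest to the collagen profile, defining cell type markers and the targeted genes; exceptions are marked. Pxn is in both the remodelling and the hemocyte list. A planned search of promoter motifs was not run, and no sequences are printed.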

Additional observations from a re-analysis of the deposited data

How the results depend on the processing

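Alternatives were DESeq2, RLE factors, total counts only, no filter, a filter of 5 CPM in 3 libraries, only the genotypes compared, a replicate block, an adjusted p of 0.01, a 1.5-fold test, FPKM for the ratios, and each library left out in turn. The 9, 6 and 8 genes called in the 3 comparisons were called in every one of these except the 1.5-fold test. That test left 5, 0 and 3 of the 10 and 1091, 335 and 964 of all genes, and by its own construction asks for larger changes. Ndg, which had to differ from the NAT10 knockdown, is among the 9 and the 8. Without Ndg, 8, 6 and 7 of the other 9 genes were called in the main test. Same-numbered libraries of different genotypes deviated together little (r from -0.0321 to 0.071), so the numbers do not pair them; with the replicate block 9, 6 and 8 of the 10 and 5282, 2675 and 4839 of all genes were called.

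The values that changed sign were not called in the main test. LanB1 between the knockdowns was 0.01 log2 with RLE factors, total counts, the 5 CPM filter and DESeq2, 0.0 without a filter, and -0.01 to 0.04 with a library left out. LanA there was -0.01 without replicate 2 of the double knockdown, and with a library left out the median of the 10 ran from -0.00843 to 0.0426 and NimC1 from -0.13 to 0.49. In the double knockdown against control, ap was 0.01 on total counts, and leaving out a library gave Ndg values from -0.67 to 0.70, eater -0.3 to 0.24, twi 0.0 to 0.08 and the LanB1 to LanB2 log2 ratio -0.02 to 0.01. The cause was not tested. Depth limits Ndg (10 and 11 counts in control and double knockdown) and Glt (53 to 211 counts per library).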
